A study of Mus musculus with 13 samples.

Results

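The DEAD and DEAH box proteins are RNA helicases named for the letters of a conserved ATP-binding motif. The family was taken as every gene symbol that begins with Ddx or Dhx followed by a number, which gave 53 of the 20662 symbols listed in each of the 2 deposited spermatogonial tables: 37 Ddx and 16 Dhx symbols. The rule uses names and no measured value, though the family was picked for description with earlier results of these data known. The symbols include the germ cell helicases Ddx4 and Ddx25, and also Ddx11, a DNA helicase, and Ddx26b, a relative of an Integrator subunit.

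The series profiled RNA of testicular germ cells from C57BL/6 mice aged 8 weeks by ribosomal-RNA-depleted, directional sequencing. Of its 13 samples, 2 of spermatogonia, titled KIT_AGSC and THY1_AGSC, were analysed for these genes, and the other 11 (5 of spermatocytes, 5 of spermatids and 1 of mature sperm) were not analysed here. The labels name no genotype and no treatment for either, and the titles carry the surface antigens KIT, found on differentiating spermatogonia, and THY1, used to enrich undifferentiated ones. How the cells were sorted and how many animals were pooled is not given in the sources used here. There is 1 library per group and therefore no replicate, so every difference below compares 2 libraries and no p-value is given.

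DEAD and DEAH box helicases use ATP to pull apart short RNA duplexes or to strip proteins from RNA. Members of the family act at nearly every step of an RNA's life: splicing, ribosome assembly, export, translation and decay. In the testis, Ddx4 (the mouse Vasa protein) marks germ cells and works in germ granules with the piRNA pathway, and Ddx25 (gonadotropin-regulated testicular helicase) is needed for RNA export and storage in haploid germ cells and is also made by Leydig cells.

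Libraries are called by the titles of their samples, but the titles were contradicted by the antigens. The transcript of Kit was listed at 0 in the KIT-labelled library and at 36.7 FPKM in the THY1-labelled library, and Thy1 stood at 78.8 and 0.723 FPKM in the same order. The headings of the value columns are crossed as well: Thy1 heads the values of KIT_AGSC, and Kit heads those of THY1_AGSC. All directions below would turn if the titles were exchanged. Values are FPKM, fragments scaled by transcript length and by the number of mapped fragments. The noncoding RNA Rpph1 held 71.8% of all FPKM in the KIT-labelled library and 37.9% in the THY1-labelled library. Of all listed genes, 33.2% and 24.2% were at exactly 0, in the same order, so a value of 0 is given only as listed at 0.

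The labelled cell type was checked on marker lists. Of 8 genes of differentiating spermatogonia, 5 were higher by 2-fold or more in the THY1-labelled library and 0 in the other, and 4 were listed at 0 in the KIT-labelled library (Kit, Sohlh2, Crabp1 and Dnmt3b). Of 10 genes of undifferentiated spermatogonia, 6 reached 1 FPKM, and of these 5 were higher by 2-fold or more in the KIT-labelled library and 1 in the other, with a summed level of 398 against 13.1 FPKM, and Zbtb16 and Lin28a were listed at 0 in both. Markers of other cells moved too. All 12 meiotic spermatocyte genes were higher by 2-fold or more in the THY1-labelled library, with a summed level of 7805 FPKM against 178, and Dmc1, Hormad1 and Tex11 were listed at 0 in the other. The same held for 6 of 7 measured Leydig genes, with sums of 12850 and 185 FPKM and with Hsd3b6 and Hsd17b3 listed at 0 in the KIT-labelled library. Spermatid genes differed among themselves. Of 10, 6 were higher by 2-fold or more in the KIT-labelled library and 4 in the other (Spaca1, Crem, Smcp and Gapdhs). Their summed level was 4953 FPKM in the KIT-labelled library against 1118, and Prm1 alone gave 2406 and 184 FPKM. Spaca1 and Crem were listed at 0 in the KIT-labelled library. Sertoli genes were split, with 2 of 7 higher by that fold in the THY1-labelled library and 4 in the other, as were peritubular genes (3 and 3 of 6) and T lymphocyte genes (1 and 4 of 6). Summed levels of the Sertoli list were 31.7 and 889.5 FPKM (30.05 and 41.3 FPKM without Clu), of the peritubular list 181 and 196 FPKM and of the T lymphocyte list 51.8 and 14.7 FPKM, with the KIT-labelled library first. The part of these cells in the helicase values was not tested, and in such bulk RNA fewer cells of a type and less RNA per cell cannot be told apart.

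The helicases were as a group higher in the THY1-labelled library. Each difference is the log2(FPKM + 1) of the KIT-labelled library less that of the THY1-labelled one, a scale on which changes of low genes come out too small. A gene entered the counts if it reached 1 FPKM in either library. Of the 53 members 52 met that minimum, and Ddx18, a ribosome assembly factor, was listed at 0 in both libraries. Higher by 2-fold or more in the THY1-labelled library were 43 of 52, or 82.7%, where the background over all 15573 genes was 41.1%. Higher by 2-fold or more in the KIT-labelled library were 2, Ddx54 and Dhx57, or 3.85%, against a background of 39.5%. The other 7 lay within 2-fold. The median difference was -2.18 over the members and -0.0026 over all genes. Over genes with at least 10 estimated fragments in the library of the larger value, as described below, the median of all genes was -1.20 and that of the members stayed at -2.18. In either direction 86.5% of the members and 80.6% of all genes differed by at least 2-fold, so it was the direction and not the share of changed genes in which the family stood away from the background.

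**Figure D1:**
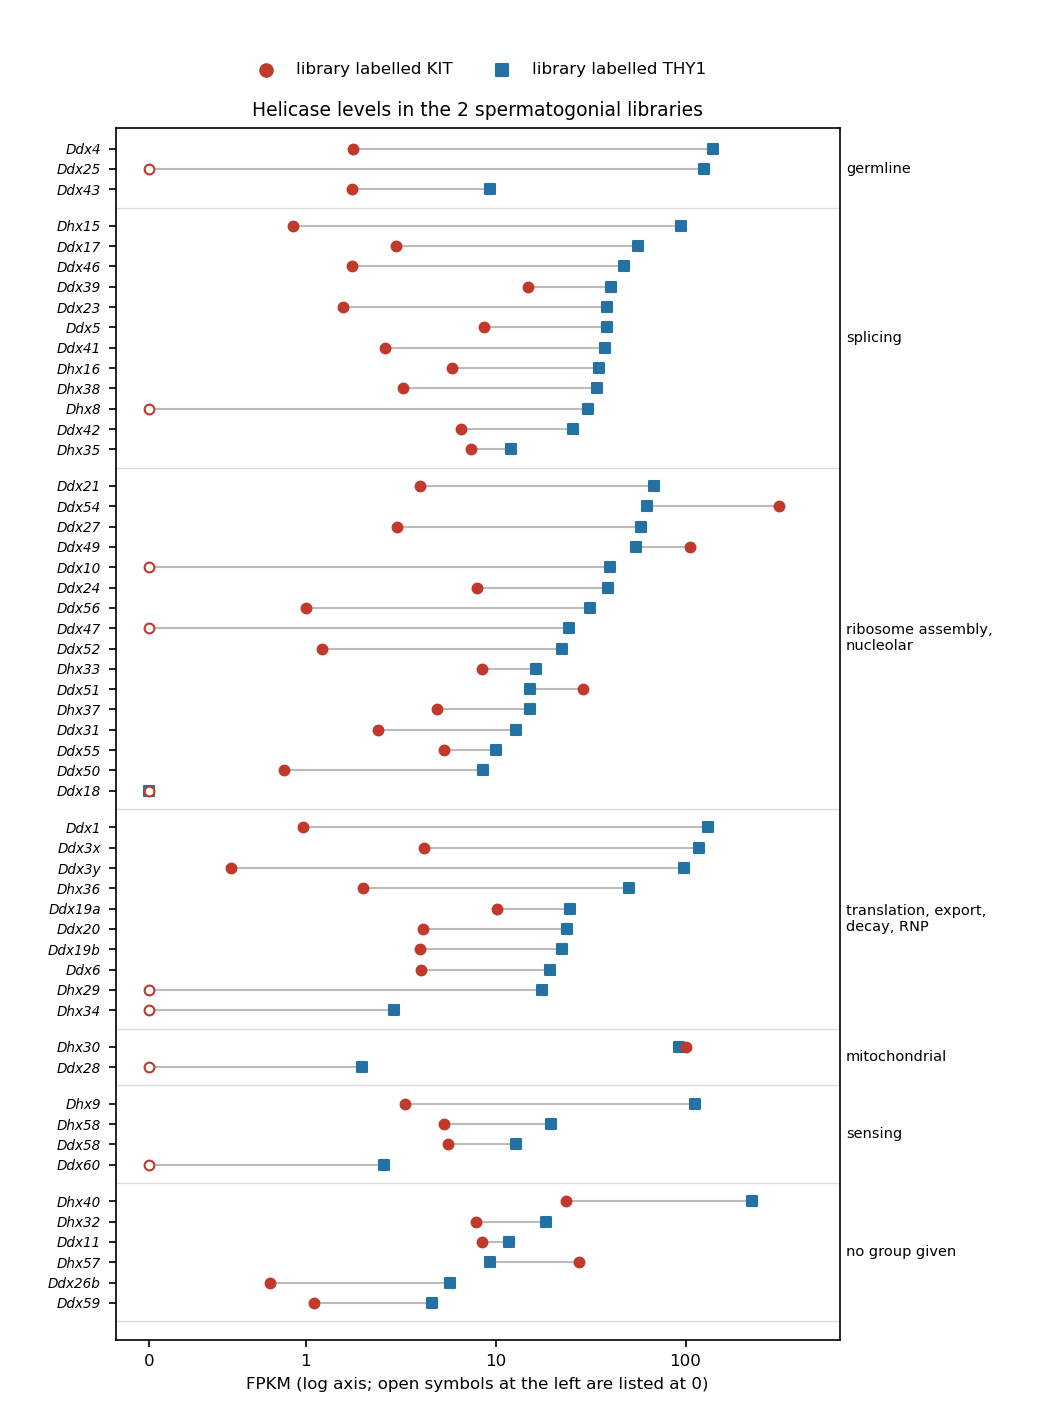
FPKM of each of the 53 helicase genes in the KIT-labelled library (circles) and the THY1-labelled library (squares), on a log axis with open symbols for genes listed at 0, grouped by role. The squares lie to the right for 47 genes, and the circles for Ddx54, Ddx49, Dhx30, Ddx51 and Dhx57.

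The summed level of the family was 759 FPKM in the KIT-labelled library and 2269 FPKM in the THY1-labelled library, or 0.177% and 0.454% of the summed FPKM without Rpph1. The sum in the KIT-labelled library was held by few members. Ddx54, Ddx49 and Dhx30 made up 68.2% of it, and the same 3 genes made up 9.27% of the sum in the THY1-labelled library. Without them the other 50 members summed to 241 and 2059 FPKM, a ratio of 8.53. The median member stood at 3.25 FPKM in the KIT-labelled library, close to the median of all genes there (2.50), and at 25.6 FPKM in the THY1-labelled library, where the median of all genes was 3.13. In the KIT-labelled library 45 members were under 10 FPKM, against 9 in the THY1-labelled library.

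**Figure D2:**
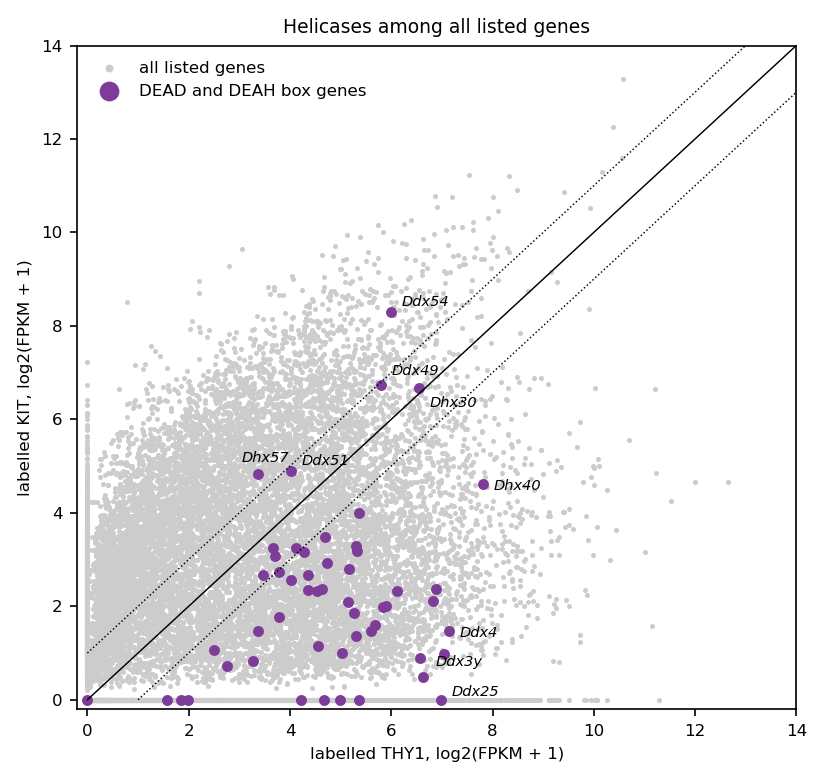
log2(FPKM + 1) of all listed genes (grey) and of the helicases (purple), with the THY1-labelled library on the x axis and the KIT-labelled library on the y axis. The solid line marks equal values and the dotted lines a 2-fold difference; 43 helicases lie at or below the lower dotted line and 2 above the upper one. Rpph1 lies outside the axes.

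The order of the members differed between the libraries, though that of the KIT-labelled library is uncertain. There 44 of the 53 members had fewer than 10 estimated fragments, as described below. In the THY1-labelled library the 6 members of at least 100 FPKM were Dhx40 (224), Ddx4 (140), Ddx1 (131), Ddx25 (126), Ddx3x (118) and Dhx9 (112). In the KIT-labelled library the 3 members of at least 100 FPKM were Ddx54 (312), Ddx49 (105) and Dhx30 (100.2). Across the 53 members, which are not independent replicates, Spearman's rho between the libraries was 0.16 and Pearson's r of log2(FPKM + 1) was 0.28. Across all genes Pearson's r was 0.42.

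The stretches before the transcription start are shown for the germ cell helicases Ddx4 and Ddx25 and for Ddx54 and Dhx57, the pair that was higher by 2-fold or more in the KIT-labelled library. Each is the 250 bases upstream of the RefSeq start on GRCm38.p6, a later build than the mm9 of the deposited tables, read 5′ to 3′ on the gene's strand. Capitals mark the GC box GGGCGG, the E-box CACGTG and the ETS motif CCGGAAG, each searched on both strands.
Ddx4 (chr13:112652311-112652560, minus strand): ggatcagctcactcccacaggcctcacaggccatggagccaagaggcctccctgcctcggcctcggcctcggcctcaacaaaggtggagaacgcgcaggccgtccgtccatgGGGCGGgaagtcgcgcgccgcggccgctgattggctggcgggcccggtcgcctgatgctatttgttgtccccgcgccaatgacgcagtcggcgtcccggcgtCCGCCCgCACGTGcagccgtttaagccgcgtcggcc
Ddx25 (chr9:35558471-35558720, minus strand): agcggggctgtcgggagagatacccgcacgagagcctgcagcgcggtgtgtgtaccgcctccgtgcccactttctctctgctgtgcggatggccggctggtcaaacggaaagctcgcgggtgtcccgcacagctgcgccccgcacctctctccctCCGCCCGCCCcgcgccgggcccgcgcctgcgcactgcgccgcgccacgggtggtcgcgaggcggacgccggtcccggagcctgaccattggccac
Ddx54 (chr5:120612880-120613129, plus strand): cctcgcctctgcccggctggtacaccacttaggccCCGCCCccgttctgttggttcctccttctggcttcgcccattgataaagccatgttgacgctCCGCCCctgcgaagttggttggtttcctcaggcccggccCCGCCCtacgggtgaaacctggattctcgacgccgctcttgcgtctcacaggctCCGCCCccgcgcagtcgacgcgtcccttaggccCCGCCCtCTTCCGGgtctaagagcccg
Dhx57 (chr17:80290477-80290726, minus strand): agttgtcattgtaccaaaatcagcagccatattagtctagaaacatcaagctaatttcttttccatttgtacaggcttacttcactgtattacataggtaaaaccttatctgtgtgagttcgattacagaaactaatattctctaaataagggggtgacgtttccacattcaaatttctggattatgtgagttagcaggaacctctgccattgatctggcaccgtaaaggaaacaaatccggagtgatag

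Of these 4 stretches, those of Ddx4, Ddx25 and Ddx54 are rich in CpG and that of Dhx57 is poor in it. They hold 31, 34, 24 and 4 CpG dinucleotides at a GC content of 70.4%, 73.6%, 66.0% and 37.6%, in the order printed. Ddx54 holds 5 GC boxes and 1 ETS motif, Ddx4 holds 2 GC boxes and an E-box 29 bases before its start, and Ddx25 holds 2 GC boxes that overlap each other. In the window of Dhx57 none of the 6 motifs searched was found. By the annotation used for the neighbours below, Dhx57 and Morn2 lie on opposite strands, start 273 bases apart and overlap over 274 bases. The stretch printed for Dhx57 can therefore lie inside Morn2. The table held a promoter for 47 of the 53 members; Ddx6, Ddx11, Ddx23, Ddx39, Dhx38 and Dhx58 were the others. The 47 held a median of 18 CpG dinucleotides, from 4 to 34, where the median over all 27025 promoters, 1 per gene, was 6. These promoters are of all RefSeq genes with a stretch, not only of genes listed or expressed here. The median GC content was 60.0% over the 47 and 52.0% over all promoters, and its part in the motif shares below was not tested.

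Among the 47, the GC box was found in 30 (63.8%, against 32.9% of all promoters) and the ETS motif in 13 (27.7% against 7.05%). The E-box was found in 4 (Ddx4, Dhx33, Dhx35 and Dhx40; 8.51% against 6.05%). The cyclic AMP response element TGACGTCA was found in 4 (Ddx19a, Ddx49, Ddx51 and Dhx36; 8.51% against 1.62%), the NRF1 palindrome in Dhx34 and Dhx37 (4.26% against 0.781%), and a CG-rich palindrome searched as the last motif in 0 (against 0.407%). Both strands were searched. A match is a description of the letters and not a binding site.

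The germ cell helicases were all higher in the THY1-labelled library. Ddx4 stood at 1.77 FPKM in the KIT-labelled library and at 140 FPKM in the THY1-labelled library, a ratio of 79.1. Ddx25 was listed at 0 and stood at 126 FPKM. Ddx43, a helicase first known as a testis antigen of tumours, was at 1.76 and 9.34 FPKM, a ratio of 5.31. Ddx4 and Ddx25 were thus the second and the fourth most abundant members in the THY1-labelled library, and both stood below the median member in the KIT-labelled library. The meiotic and Leydig lists above lie in the same direction as both of them, and their part in these values was not tested.

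The helicases of splicing followed in the same direction. Higher by 2-fold or more were 11 of 12 in the THY1-labelled library and 0 in the other, against 41.1% and 39.5% of all genes. The median difference was -3.24. With the KIT-labelled library first, Dhx15, which takes the spent spliceosome apart, was at 0.863 and 94.5 FPKM, a ratio of 109. Dhx8, which releases the spliced RNA, was listed at 0 and stood at 30.7 FPKM. Dhx16, which activates the spliceosome, was at 5.92 and 34.9 FPKM, and Dhx38, which remodels it between its catalytic steps, was at 3.25 and 34.3 FPKM. All 4 DEAH box proteins of the splicing cycle thus showed one direction, and the 3 above 0 in both libraries did so at ratios from 5.89 for Dhx16 up to 109.

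The DEAD box proteins of early spliceosome assembly showed the same direction. Ddx46 was at 1.76 and 47.4 FPKM, Ddx23 at 1.58 and 38.5 FPKM, and Ddx42 at 6.57 and 25.6 FPKM. Ddx41, which also has a part in sensing foreign DNA, was at 2.61 and 37.7 FPKM. The coregulators Ddx5 and Ddx17 are close paralogs. Ddx5 stood at 8.71 and 38.4 FPKM and Ddx17 at 2.99 and 56.3 FPKM, so that Ddx5 was 2.92 times Ddx17 in one library and 0.682 times in the other. The former ratio is uncertain, since Ddx17 rested on about 4.4 estimated fragments in the KIT-labelled library, as described below. The export factor Ddx39 was at 14.9 and 40.3 FPKM. Dhx35, found in spliceosomes, was the member of this group within 2-fold, at 7.40 and 12.0 FPKM.

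The helicases of ribosome assembly and the nucleolus held both the family's general direction and some of its exceptions. Of 16, 10 were higher by 2-fold or more in the THY1-labelled library and 1 in the KIT-labelled library, against 41.1% and 39.5% of all genes. Another 4 lay within 2-fold and Ddx18 was listed at 0 in both, with a median difference of -2.15. Ddx54, a nucleolar helicase that also binds nuclear receptors, stood at 312 FPKM in the KIT-labelled library and 62.6 FPKM in the THY1-labelled library, a ratio of 4.98. Ddx49, a helicase of ribosomal RNA processing, was at 105 and 54.99 FPKM and Ddx51, a factor of the large ribosomal subunit, at 28.7 and 15.3 FPKM, ratios of 1.91 and 1.88 that fell just short of 2-fold. Of the 5 members of the whole family that were larger in the KIT-labelled library, 3 were nucleolar, where the group holds 16 of all 53 members. Only Ddx54 of these 3 reached 2-fold. The 5 include Dhx30, which was larger in the THY1-labelled library after scaling to a median ratio of 1.

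The rest of the nucleolar group ran the other way. Ddx21, which couples ribosomal RNA transcription to its processing, was at 4.02 FPKM in the KIT-labelled library and 68.3 FPKM in the THY1-labelled library, and its neighbour and paralog Ddx50 at 0.767 and 8.63 FPKM. In the same order, Ddx27 was at 3.04 and 58.2 FPKM, Ddx24 at 8.02 and 39.1 FPKM, Ddx56 at 1.001 and 31.6 FPKM and Ddx52 at 1.23 and 22.5 FPKM. Ddx10 and Ddx47, of the small subunit, were listed at 0 against 40.2 and 24.4 FPKM. All of these lay below 10 FPKM in the KIT-labelled library, where Ddx54, Ddx49 and Ddx51 lay above it. Ddx31 stood at 2.40 and 12.8 FPKM and Dhx37, needed to release a small nucleolar RNA from the ribosome precursor, at 4.93 and 15.1 FPKM. Dhx33 (8.51 and 16.3 FPKM) and Ddx55 (5.35 and 10.0466 FPKM) lay within 2-fold.

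The helicases of translation, export, decay and RNA-protein assembly were all higher by 2-fold or more in the THY1-labelled library, 10 of 10, against 41.1% of all genes. Their median difference was -3.18. Ddx19a came within 2-fold at the same upper quartile (-0.95) and at the same sum without Rpph1 (-0.99), which left 9 of 10. Ddx1, of the complex that joins the pieces of spliced tRNAs, was at 0.968 FPKM in the KIT-labelled library and 131 FPKM in the THY1-labelled library, a ratio of 136. Dhx36, which unwinds G-quadruplexes, was at 2.02 and 50.4 FPKM, and Dhx29, which helps ribosomes scan structured leaders, was listed at 0 and at 17.6 FPKM. Ddx6, of cytoplasmic P-bodies, was at 4.06 and 19.5 FPKM, Ddx20, of the SMN complex, at 4.17 and 23.9 FPKM, and Dhx34, of nonsense-mediated decay, at a listed 0 and 2.94 FPKM. The group thus held both the largest and some of the smaller ratios of the family.

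This group holds 2 pairs of close paralogs, whose reads could have been shared in the authors' counting. Ddx3x and Ddx3y, the X- and Y-linked copies of a translation initiation helicase, stood at 4.20 and 0.406 FPKM in the KIT-labelled library and at 118 and 97.6 FPKM in the THY1-labelled library. The X copy was 10.3 times the Y copy in the former and 1.21 times in the latter. The ratio between the libraries was 240 for Ddx3y, the largest of any member above 0 in both, and 28.0 for Ddx3x. The nuclear pore export helicases Ddx19a and Ddx19b were at 10.2 and 4.01 FPKM in the KIT-labelled library and at 24.8 and 22.2 FPKM in the THY1-labelled library. In both pairs the copies were closer to each other in the THY1-labelled library. The ratios in the KIT-labelled library are uncertain. There Ddx3x, Ddx3y, Ddx19a and Ddx19b rested on about 7.2, 0.68, 9.5 and 7.1 estimated fragments, as described below. D1Pas1, an autosomal copy of Ddx3x known from the testis, ran against both of its relatives, at 5.51 FPKM in the KIT-labelled library and 0.743 FPKM in the THY1-labelled library.

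The mitochondrial pair Dhx30 and Ddx28, both factors of mitochondrial ribosome assembly, differed from each other. Dhx30 was at 100.2 FPKM in the KIT-labelled library and 92.7 FPKM in the THY1-labelled library, the smallest difference of any member above 0 (0.11 on the log2 scale, and -0.45 after scaling to a median ratio of 1). Ddx28 was listed at 0 and stood at 1.97 FPKM.

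All 4 helicases of nucleic acid sensing were higher by 2-fold or more in the THY1-labelled library, against 41.1% of all genes, with a median difference of -1.77. Ddx58 came within 2-fold at the same upper quartile (-0.83) and at the same sum without Rpph1 (-0.87), which left 3 of 4. With the KIT-labelled library first, Dhx9 (RNA helicase A) was at 3.34 and 112 FPKM. The RNA sensor Ddx58 (RIG-I) was at 5.64 and 12.9 FPKM, its regulator Dhx58 (LGP2) at 5.37 and 19.6 FPKM, and Ddx60 at a listed 0 and 2.60 FPKM. Dhx9, which also serves splicing and transcription, stood apart from the other 3 in level. The macrophage list had 3 of 7 measured genes higher by 2-fold or more in the THY1-labelled library and 2 in the other, with sums of 964 and 207 FPKM. Aif1 alone gave 880 FPKM of the former, and the other 6 genes summed to 83.2 FPKM in the THY1-labelled library and 182 FPKM in the KIT-labelled library. The part of macrophages in these values was not tested.

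The 6 members with no group assigned were mixed. Dhx40 was at 23.5 FPKM in the KIT-labelled library and at 224 FPKM in the THY1-labelled library, where it was the most abundant member, a ratio of 9.51. Dhx57 ran the other way at 27.4 and 9.37 FPKM, a ratio of 2.92. The stretch printed for Dhx57 above, which can lie inside Morn2, holds 4 CpG dinucleotides. Those of Ddx54, Ddx49, Ddx51 and Dhx30, also larger in the KIT-labelled library, hold 24, 18, 32 and 23. The part of CpG content in the direction was not tested. In the order KIT, THY1, Dhx32 was at 7.89 and 18.4 FPKM, Ddx26b at 0.653 and 5.77 FPKM, and Ddx59 at 1.10 and 4.64 FPKM. Ddx11, needed for sister chromatid cohesion, lay within 2-fold at 8.44 and 11.7 FPKM.

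**Figure D3:**
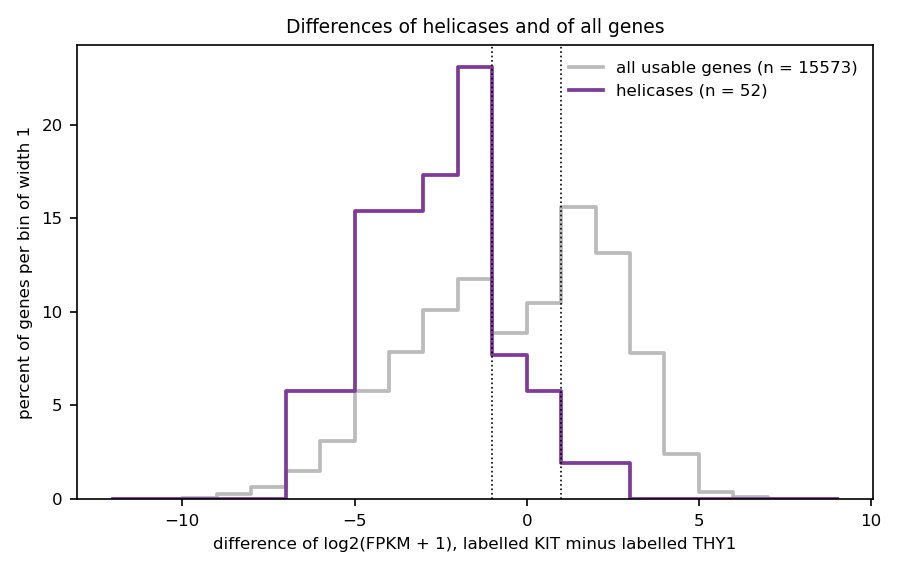
Share of genes (percent, y axis) per bin of width 1 of the difference in log2(FPKM + 1), KIT-labelled less THY1-labelled (x axis), for 52 helicases (purple) and 15573 genes (grey). Dotted lines mark a 2-fold difference; all genes spread to both sides while 43 helicases lie at or below -1.

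Depth bears on the low values of the KIT-labelled library. The worth of 1 fragment was read from the low end of FPKM multiplied by transcript length, and it was 6.41 times larger in the KIT-labelled library, so its relative depth was lower. Expressed in fragment equivalents (FPKM times length over that worth), the median member rested on about 4.43 in the KIT-labelled library and 194 in the THY1-labelled library. In the former 44 of 53 members were under 10 fragment equivalents, 9 of them listed at 0, and 6 more were above 0 but below 1. Ratios such as those of Ddx3y, Ddx1, Dhx15 and Ddx4 therefore have a smaller value that stands on about 0.683, 1.71, 0.877 and 1.87 fragment equivalents. Had they been at their level in the THY1-labelled library, the same genes would have had 164, 233, 96.0 and 148 in the KIT-labelled library. For Ddx25, listed at 0, the figure would have been 318.

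Of the 43 members higher by 2-fold or more in the THY1-labelled library, 36 would have had at least 10 fragment equivalents in the KIT-labelled library at their THY1-labelled level. The other 7 would have had fewer, namely Ddx50 (8.00), Ddx26b (7.61), Ddx43 (7.53), Ddx60 (5.94), Dhx34 (4.38), Ddx59 (3.67) and Ddx28 (1.63), so their differences were near the limit of detection. The members larger in the KIT-labelled library rested on more: about 493 fragment equivalents for Ddx54, 144 for Dhx30, 82.3 for Ddx49, 50.8 for Ddx51 and 48.3 for Dhx57. When genes were counted only with at least 10 fragment equivalents in the library of the larger value, the members' counts stayed at 43 and 2 against backgrounds of 52.6% and 29.7% (82.3% in either direction). With a minimum of 5 FPKM they were 39 and 2 of 48, against 45.0% and 39.4% of all genes (84.3% in either direction). Among genes above 0 in both libraries they were 35 and 2 of 44, against 33.9% and 41.5% (75.5% in either direction). At 4-fold they were 31 and 1 of 52, against 29.4% and 23.8% (53.2% in either direction). Under each of these rules the members' share lay above the background in the THY1-labelled library and below it in the other. The minima of fragments and of FPKM admit a gene through its larger value. For 47 members that is the value in the THY1-labelled library, so these counts are no independent check of the direction.

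**Figure D4:**
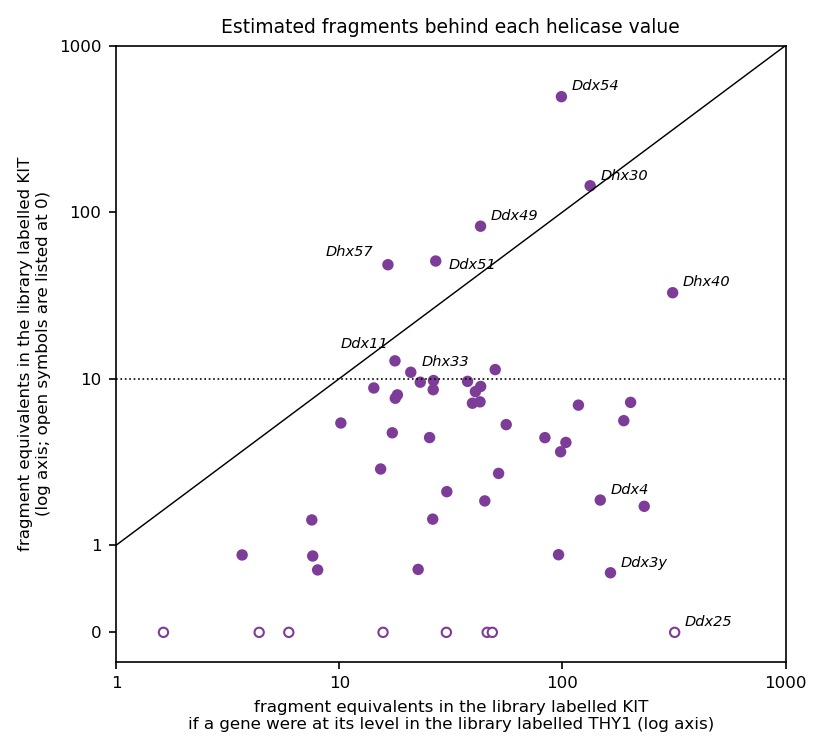
Fragment equivalents behind each helicase value in the KIT-labelled library (y axis, log) against the number expected there at the gene's level in the THY1-labelled library (x axis, log), with open symbols for genes listed at 0. The line marks equality and the dotted line 10; Ddx54, Dhx30, Ddx49, Ddx51 and Dhx57 lie above the line of equality, and Ddx18 is not shown.

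The difference ran with the base composition of the transcripts. Across the 52 members Spearman's rho between the GC content of the longest coding transcript and the difference was 0.47, and across 15333 genes it was 0.14. These points share 2 libraries and are a description. All 15 members with a GC content under 45% were higher by 2-fold or more in the THY1-labelled library, where 49.2% of all genes of that band were. From 45% to 50% it was 11 of 12 against 45.6%, from 50% to 55% it was 11 of 16 against 40.4%, and from 55% up it was 6 of 9 against 31.0%. In each band the members' share lay above that of all genes of the band. The 5 members larger in the KIT-labelled library all lay above 50%, with Ddx54 at 59.0%, Ddx49 at 58.3% and Dhx30 at 55.9%. Ddx3y had the lowest GC content of any member, 36.1%. The part of base composition in the differences was not tested.

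**Figure D5:**
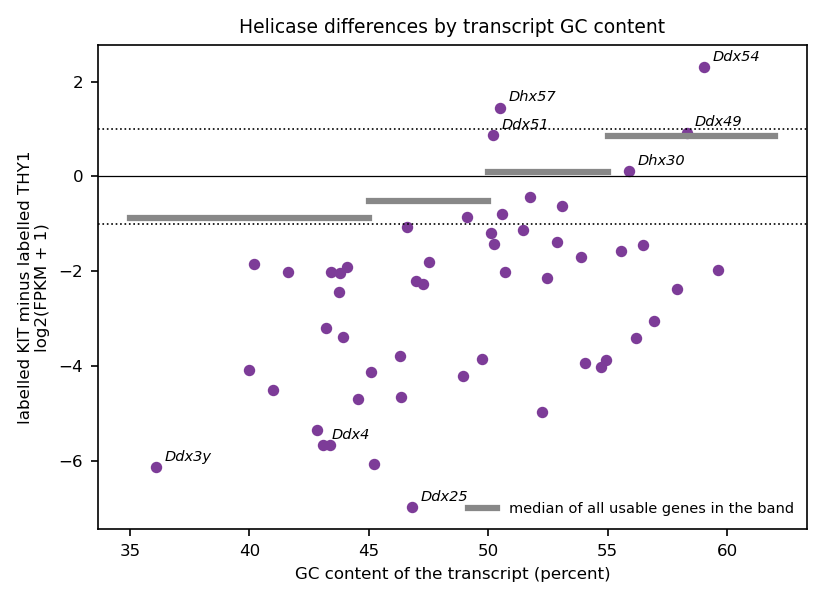
Difference in log2(FPKM + 1), KIT-labelled less THY1-labelled (y axis), of 52 helicases (points) against the GC content of the longest coding transcript in percent (x axis). Grey bars give the median of all usable genes in 4 bands of GC content; the members under 45% all lie below -1, and the 5 members above 0 lie above 50%.

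Several members share a promoter region with a gene on the opposite strand. By sign alone, 6 of 7 neighbours of at least 1 FPKM were larger in the other library than the helicase. After scaling to a median ratio of 1 it was 4 of 7. Of the genes in these pairs, Ddx49, Ddx51, Dhx30 and Gtf3c4 lay within 2-fold. The share of opposite pairs over all genes was not computed, so no pattern is read from the count. Whether the authors' counting used strand is not given in the sources used here, so reads from bases that both genes share cannot be told apart. Among the divergent pairs named here, Dhx57 overlaps Morn2 over 274 bases and Dhx30 overlaps Smarcc1 over 123 bases. The other divergent pairs named share 0 bases. Of 10 members with a divergent neighbour that starts within 1000 bases and is listed in the tables, 7 have a neighbour of at least 1 FPKM. Ddx49, Ddx51, Dhx57 and Dhx30 were larger in the KIT-labelled library, and their neighbours were higher by 2-fold or more in the THY1-labelled library. With the KIT-labelled library first, Cope beside Ddx49 stood at 15.1 and 168 FPKM and Noc4l beside Ddx51 at 1.81 and 72.4 FPKM. Morn2, which overlaps the start of Dhx57, was listed at 0 and at 400 FPKM, and Smarcc1 beside Dhx30 was at 1.10 and 55.8 FPKM. The direction of Dhx30 itself turned under the median-ratio scaling.

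Ddx25 showed the reverse arrangement, since Pus3 beside it stood at 230 FPKM in the KIT-labelled library and 25.1 FPKM in the THY1-labelled library. Ddx42 and its neighbour Ccdc47 (0.770 and 54.7 FPKM) had the same direction, and Gtf3c4 beside Ddx31 lay within 2-fold at 4.13 and 3.23 FPKM. The fifth member larger in the KIT-labelled library, Ddx54, has the divergent neighbour Rita1, which was not used here. In all, 9 members overlap a gene on the opposite strand. Homer3 overlaps Ddx49 over 1496 bases and stood at 275 FPKM in the KIT-labelled library and 73.5 FPKM in the THY1-labelled library, the direction of Ddx49 itself. Fank1 overlaps Dhx32 over 5866 bases and stood at 5.49 and 243 FPKM, again the direction of the helicase. Dus2 overlaps Ddx28 over 2262 bases and Adgre5 overlaps Ddx39 over 3642 bases, and neither was used here. Ddx54 overlaps Cfap73, also not used here, over 258 bases, and Dhx57 and Dhx30 overlap their neighbours as given above. The values of Ddx49, Dhx32, Ddx28, Ddx39, Ddx54, Dhx57 and Dhx30 are uncertain for that reason. Ddx59 overlaps a noncoding gene listed at 0 in both libraries, and Ddx17 shares 4 bases with Kdelr3.

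RNA helicases with other names also lay mostly higher in the THY1-labelled library, and how far they differ from the DEAD and DEAH box genes was not tested. Of 23 measured, 15 (65.2%) were higher by 2-fold or more in the THY1-labelled library and 3 (13.0%) in the KIT-labelled library, with a median difference of -1.50. Of all genes 41.1% and 39.5% were, in the same order. With the KIT-labelled library first, Bat1a, the export helicase now called Ddx39b, was listed at 0 and at 45.02 FPKM, Ascc3 was at 0.916 and 48.7 FPKM and the spliceosome helicase Snrnp200 at 2.83 and 74.96 FPKM. The 3 in the other direction were D1Pas1 and both paralogs of the translation initiation helicase: Eif4a2 at 200.2 and 83.1 FPKM and Eif4a1 at 8.32 and 0.254 FPKM. Eif4a1 has near-identical copies in the genome, and its values are uncertain for that reason. Eif4a1 and D1Pas1 had fewer than 10 fragment equivalents in the KIT-labelled library, so that 1 of the 3 was left at that minimum, against 15 in the other direction.

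Partner proteins of the helicases had 21 of 28 usable genes higher by 2-fold or more in the THY1-labelled library and 5 in the KIT-labelled library. The shares of all genes were 41.1% and 39.5%. The partners' median difference was -2.50. Thoc5, of the export complex that works with the Ddx39 proteins, was listed at 0 and at 92.9 FPKM, and the splicing factor Sf3b1, a partner of Ddx46, was at 0.858 and 131 FPKM. Magoh, of the exon junction complex, was at 6.08 and 132 FPKM, and Thoc2 at 1.37 and 40.9 FPKM. Eif4g1, the scaffold that binds Eif4a, was at 58.4 and 276 FPKM, and Eif4h, which stimulates Eif4a, at 16.3 and 164 FPKM. The 5 in the other direction had helicase partners that were higher in the THY1-labelled library. Tfip11 and Nkrf, which both bind Dhx15, stood at 127 and 6.38 FPKM in the KIT-labelled library and at 23.9 and 2.00 FPKM in the THY1-labelled library. Edc3, a partner of Ddx6, was at 109 and 8.77 FPKM, and Gemin4 and Gemin6, which sit with Ddx20 in the SMN complex, were at 33.2 and 4.96 FPKM and at 17.5 and 1.31 FPKM. Gemin6 and Nkrf had fewer than 10 fragment equivalents in the KIT-labelled library, so that 3 of the 5 were left at that minimum.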

How the data were processed

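RNA of 2 spermatogonial samples was analysed. The authors deposited 1 decimal value per gene symbol with no unit in the header, and the values were taken as FPKM because the submitters' processing notes name Cufflinks 2.1.1. Those notes also name CASAVA, TopHat 1.4.1 and the build mm9, without roles. The sources used here do not say which filters or annotation were applied or how reads with several alignments were treated. Each table was assigned to the sample recorded for it and grouped by its title. Depth per library is unknown.

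Computed here were differences of log2(FPKM + 1), counts at a fixed 2-fold over genes reaching 1 FPKM in either library, medians and sums. Lengths, GC content and neighbours came from GENCODE M21 (all 53 members matched, Ddx26b by its current name; 98.2% of all symbols had a length) and promoters from RefSeq on GRCm38.p6. The worth of 1 fragment was percentile 5 of FPKM times length over genes with a single transcript longer than 1000 bases (the ratio between libraries was 6.46 at percentile 2 and 5.98 at percentile 10). Every member was named. The lists of other helicases and partners gave the 4 genes that differed most in either direction and the 2 of highest mean, and Eif4a1, D1Pas1, Edc3, Tfip11, Nkrf, Gemin4 and Gemin6 were added after their values were seen. A further gene that the rule names is not reported here. Members and lists were chosen with earlier results of these data known, and the looks at GC content, neighbours and promoters were added after seeing values. The estimate of fragment worth and the 2-fold counting were run on simulated libraries, and the other steps were not. Python 3.11.15, numpy 2.4.6 and pandas 2.3.3 were used.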

Additional observations from a re-analysis of the deposited data

How the results depend on the processing

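The family's median stayed below 0 under each alternative tried. It was -3.10 with a pseudocount of 0.1, -2.64 after scaling to a median ratio of 1, -1.99 at the same upper quartile, -2.01 at the same sum without Rpph1, -2.15 with no minimum, -2.32 with a minimum of 5 FPKM and -2.09 over genes above 0 in both libraries. These alternatives are no independent check of the direction. The 3 scalings shifted the KIT-labelled library by only -0.56, 0.27 and 0.22 on the log2 scale, in the order above. The minima admitted most members through their value in the THY1-labelled library. Over all genes the median was -0.57, 0.26 and 0.22 under the 3 scalings, in that order, 0.42 over genes above 0 in both, -0.40 with a minimum of 5 FPKM and -1.20 with at least 10 fragment equivalents, where the members' median stayed at -2.18. The summed level in the KIT-labelled library was 514, 915 and 886 FPKM under the 3 scalings. Members higher in the KIT-labelled library numbered 1 at the median ratio (Dhx57 came within 2-fold), 4 at the same upper quartile or the same sum without Rpph1 (Ddx49 and Ddx51 joined) and 1 at 4-fold, and members higher in the THY1-labelled library numbered 46, 40, 40 and 31 (Ddx19a, Ddx58 and Dhx32 came within 2-fold in both settings with 40). Of all genes, 46.2%, 39.0%, 39.3% and 29.4% were higher in the THY1-labelled library under these 4 settings, and 33.3%, 42.4%, 41.8% and 23.8% in the other. The sensing helicases higher in the THY1-labelled library numbered 1 at 4-fold, and the mitochondrial ones 0 at 4-fold, with a minimum of 5 FPKM or above 0 in both. No paired analysis was possible because each group holds 1 library, and for the same reason no replicate could be left out. Depth limits the KIT-labelled library most.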
